A study of Mus musculus with 10 samples.

Results

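The T cell receptor complex and its proximal kinases were followed as 9 genes in ChIP-seq peak lists of RNA polymerase II. They encode the receptor chains CD3 epsilon (Cd3e), CD3 delta (Cd3d), CD3 gamma (Cd3g) and CD3 zeta (Cd247), the coreceptor Cd4, the tyrosine kinases Lck and Zap70, and the adaptors Lat and Lcp2 (SLP-76). The members were chosen by gene symbol, not by a measured value, but with earlier results of these data known. They are 9 of the 10419 genes to which the authors' tables assign a promoter peak in at least 1 library. The cells were mouse CD4+ T cells from Balb/c DO11.10 animals, a strain that carries a transgenic T cell receptor for an ovalbumin peptide. They had been primed as Th1 cells with anti-CD3 at 0.1 µg/ml, anti-CD28 at 1 µg/ml, interleukin 12 at 10 ng/ml and an antibody to interleukin 4, then expanded with an interleukin 2 analogue and rested for a day without it. Cells restimulated for 30 min and for 2 h on plate-bound anti-CD3 (5 µg/ml) with soluble anti-CD28 (2.5 µg/ml) were set against cells that were not restimulated (NR), with 2 libraries in each of the 3 groups. Every group had thus been stimulated once, during priming, before the experiment. Libraries of the series for trimethylated lysine 36 of histone H3 and for input were not analysed here. Separate animals or cultures are not named for the replicates, so each p-value rests on a spread between libraries that may be technical.

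The CD3 and zeta chains carry the cytoplasmic tyrosine motifs of the receptor. When the receptor binds its ligand, Lck, held at the coreceptor CD4, phosphorylates those motifs, ZAP-70 docks on them and in turn phosphorylates LAT and SLP-76, which assemble the calcium and Ras pathways. Anti-CD3 engages the receptor complex directly, and these genes encode chains of that complex, its coreceptor and proximal signalling proteins. The antibody used, 8WG16, recognises the heptad repeats of the largest polymerase subunit and prefers repeats that are little phosphorylated. The labels call the target total polymerase.

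The labelled cell type was checked against marker genes. All 6 T cell markers and both CD4 helper markers (Cd4 and Zbtb7b) had a promoter peak in all 6 libraries, and 5 or 6 of 6 Th1 markers did in each library. As 4 of these T cell markers (Cd3e, Cd3d, Cd3g and Cd247) and Cd4 are themselves among the 9 genes, the check beyond them rests on Cd2, Cd5 and Zbtb7b. Cxcr3 was the missing Th1 gene, with peaks of 706 bp in 30 min replicate 2 and 574 bp in 2 h replicate 2 alone. Of the CD8 markers, Cd8a had no assigned peak in any library and Cd8b1 had 314, 521 and 576 bp in replicate 2 of NR, 30 min and 2 h. None of 5 B cell, 5 myeloid or 3 natural killer cell markers had an assigned peak in any library. The lists held 15330 to 23299 peaks, of which 9074 to 10680 lay within 1000 bp of a start site. Read depth is not given in the files. The median pileup at promoter summits in replicates 1 and 2 was 18.0 and 82.5 for NR, 28.0 and 122 for 30 min, and 56.0 and 111 for 2 h. Replicate 1 pileups are whole numbers and replicate 2 pileups are mostly fractional, so the 2 sets stand on different scales. The median promoter peak was 725 and 920 bp wide in NR, 692 and 1185 bp at 30 min and 987 and 1229 bp at 2 h. The first 30 min library thus had the narrowest peaks and the shortest list of the series, and the second the longest list. What part these differences between libraries have in the results was not tested.

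Promoter sequences are shown for the start sites on which the results turn: those of Lcp2, Zap70 and Lck, which had the largest increases of called length at 30 min, the second promoter of Lck, that of Cd247, whose summit lies far from its start, and the divergent pair Cd3g and Cd3d. They are RefSeq windows of 250 bases before to 50 after an annotated start (GRCm38.p6, the assembly also called mm10), read 5′ to 3′ on the gene's strand, and come from the reference genome, not from Balb/c. Capitals mark GGAA and its reverse complement TTCC, the core letters bound by ETS family factors, which are abundant in T cells.
Lcp2 chr11:34046678-34046977 (+): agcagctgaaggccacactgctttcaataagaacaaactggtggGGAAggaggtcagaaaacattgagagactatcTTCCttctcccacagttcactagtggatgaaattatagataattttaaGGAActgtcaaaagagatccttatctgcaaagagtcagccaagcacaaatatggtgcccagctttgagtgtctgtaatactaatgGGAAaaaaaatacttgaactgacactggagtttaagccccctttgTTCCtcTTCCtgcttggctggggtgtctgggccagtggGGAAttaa
Zap70 chr1:36761548-36761847 (+): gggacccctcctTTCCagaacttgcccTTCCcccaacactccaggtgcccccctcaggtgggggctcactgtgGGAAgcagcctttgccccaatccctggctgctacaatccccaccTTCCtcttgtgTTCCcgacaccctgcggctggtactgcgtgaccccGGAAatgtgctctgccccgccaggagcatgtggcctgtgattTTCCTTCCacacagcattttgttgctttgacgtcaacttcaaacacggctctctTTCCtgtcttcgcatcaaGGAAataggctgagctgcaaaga
Lck distal chr4:129573592-129573891 (−): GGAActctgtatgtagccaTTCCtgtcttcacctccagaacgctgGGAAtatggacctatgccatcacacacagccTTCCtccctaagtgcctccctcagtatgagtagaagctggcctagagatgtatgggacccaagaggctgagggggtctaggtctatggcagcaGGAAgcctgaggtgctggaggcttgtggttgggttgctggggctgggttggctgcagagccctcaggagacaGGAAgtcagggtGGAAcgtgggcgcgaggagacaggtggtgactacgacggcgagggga
Lck proximal chr4:129558323-129558622 (−): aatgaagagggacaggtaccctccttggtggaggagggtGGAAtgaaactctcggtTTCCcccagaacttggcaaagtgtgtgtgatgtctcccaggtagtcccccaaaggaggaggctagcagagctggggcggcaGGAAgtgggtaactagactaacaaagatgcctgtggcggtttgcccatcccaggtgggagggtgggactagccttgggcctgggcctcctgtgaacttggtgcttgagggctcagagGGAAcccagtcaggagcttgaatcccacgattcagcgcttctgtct
Cd247 chr1:165788431-165788730 (+): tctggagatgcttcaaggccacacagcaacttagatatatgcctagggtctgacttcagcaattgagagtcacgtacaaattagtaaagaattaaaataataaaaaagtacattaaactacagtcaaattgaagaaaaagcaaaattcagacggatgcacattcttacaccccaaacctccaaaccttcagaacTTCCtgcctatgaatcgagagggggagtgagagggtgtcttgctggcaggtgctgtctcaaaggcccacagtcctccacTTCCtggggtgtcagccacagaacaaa
Cd3g chr9:44980382-44980681 (−): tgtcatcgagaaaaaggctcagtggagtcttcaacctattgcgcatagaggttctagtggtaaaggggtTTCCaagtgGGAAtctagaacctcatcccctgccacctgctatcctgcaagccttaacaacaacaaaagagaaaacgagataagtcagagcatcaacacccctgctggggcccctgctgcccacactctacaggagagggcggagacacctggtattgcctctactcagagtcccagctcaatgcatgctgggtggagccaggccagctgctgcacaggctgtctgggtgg
Cd3d chr9:44981536-44981835 (+): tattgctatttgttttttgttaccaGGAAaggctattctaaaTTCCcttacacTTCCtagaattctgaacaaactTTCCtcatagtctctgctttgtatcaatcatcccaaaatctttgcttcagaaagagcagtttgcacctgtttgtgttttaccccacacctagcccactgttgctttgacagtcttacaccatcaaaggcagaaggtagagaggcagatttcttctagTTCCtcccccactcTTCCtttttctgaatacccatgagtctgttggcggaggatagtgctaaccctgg
Windows were found for 8 of the 9 members, and Cd4 had none in the table. GGAA on either strand was present in the window nearest the main start of all 8, as it was in 96.0% of 32817 windows. The Zap70 window held 10 matches, those of Lck distal and Lcp2 7 each, that of Cd3d 6, and those of Cd3e and Lat 5 each. Cd247 and Cd3g held 2 each, and the median over all windows was 3. Whether these counts go with the changes of called length was not tested. TGTGGT, the core of RUNX sites, was in 2 of 8 windows (Lck distal and Lat) and in 16.8% of all. TATAAA was in 0 of 8 and in 13.6% of all, CCAAT in 1 of 8 and 37.4%, and GGGCGG in 1 of 8 and 35.6%. The G and C content of the 8 windows ran from 42.3% in Cd3d to 65.7% in Lat, beside a median of 52.7%. The window of Lcp2 is placed on a RefSeq start at −273 bp from the start in the authors' tables, so it lies wholly upstream of the peak summits.

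The files hold peaks and no read counts, so the value compared was the called length: the bp of promoter peaks that the authors assigned to a gene. It was tested with limma on log2(bp + 100) after each library was centred on its median gene, over the 9908 genes that had one in 2 or more libraries. Changes are in log2 units with their standard error (SE). In bulk chromatin, a longer peak cannot tell apart more cells that carry polymerase and more polymerase per cell. All 9 genes passed the filter, 8 of them with an assigned peak in all 6 libraries and Lat with one in 3. At 30 min against NR the changes were 2.51 for Lcp2, 1.43 for Zap70 and 1.37 for Lck, 0.57 for Cd247 and 0.44 for Cd3e, and between −2.30 and 0.27 for the other 4. None of the 9 passed an adjusted p of 0.05 in any of the 3 comparisons. Over all genes, 0.232% passed as longer and 0.0101% as shorter at 30 min against NR, 0.373% and 0.0606% at 2 h against NR, and 0.0% in both directions at 2 h against 30 min.

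Before adjustment, limma gave a p under 0.05 to 4 of the 9 genes as longer at 30 min (Cd247, Lck, Zap70 and Lcp2), where 5.85% of all genes did, and to 0 as shorter, where 2.15% did. At 2 h against NR it did so for 2 as longer (Zap70 and Lcp2), beside 7.95% of all genes, and for 1 as shorter (Lat, by a change of assignment described with that gene), beside 4.65%. Between 2 h and 30 min, 0 were longer at 2 h, beside 2.26%, and 1 was shorter (Lck), beside 2.92%. Both 30 min libraries lay above both NR libraries for 6 of 9 genes, a pattern found in 11.5% of all genes, and below them for 1 (Lat), beside 1.16%. Both 2 h libraries lay above both NR libraries for 7 of 9, but 52.3% of all genes did so, and below them for Lat, beside 2.09%. No gene of the 9 had groups that did not overlap between 2 h and 30 min, beside 17.0% longer and 0.727% shorter over all genes. The median log2 change of the 9 was 0.44 at 30 min against NR, beside −0.04 over all genes, 0.19 at 2 h against NR, beside −0.03, and −0.35 at 2 h against 30 min, beside −0.01. With 2 libraries a group, a comparison has 3 splits, and no permutation can give a p under 1 in 3.

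**Figure D1:**
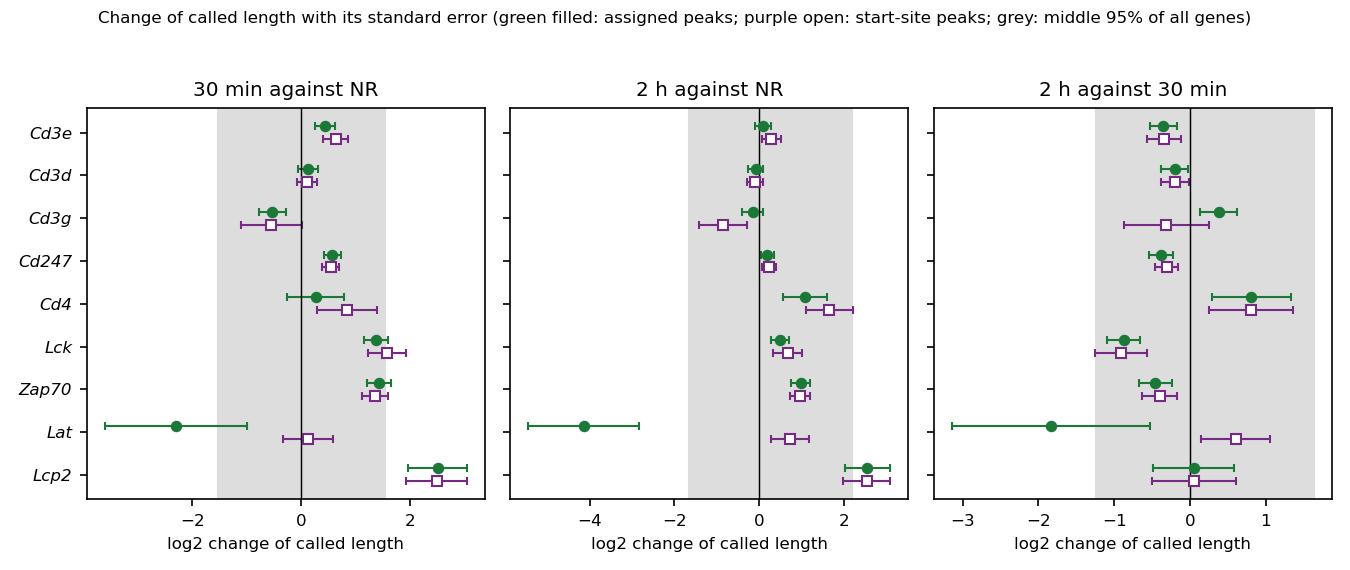
Log2 change of called length (horizontal axis) for the 9 genes in each comparison, with bars of 1 SE from limma. Filled green points are peaks assigned to the gene, open purple points are peaks over its start sites, and grey marks the middle 95% of all genes. Lcp2 lies right of the grey band in both comparisons with NR, and Lat changes side with the way peaks are counted.

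Among the receptor chains, Cd3e, Cd3d and Cd3g lie together in 40019 bp of chromosome 9. Cd3e (mm10, 44998743 to 45009590, minus strand) encodes the epsilon chain, which pairs with both delta and gamma. Its called length was 2309 and 2860 bp in NR, 3451 and 4496 bp at 30 min and 3651 and 4049 bp at 2 h. Both 30 min libraries and both 2 h libraries lay above both NR libraries, yet once centred the log2 change was 0.44 ± 0.18 at 30 min (SE, limma adjusted p = 0.647) and 0.09 ± 0.18 at 2 h (adjusted p = 0.865). In NR replicate 1 the length came from 2 separate peaks of 1685 and 624 bp that were a single peak in the other 5 libraries.

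Cd3d (44981786 to 44987052, plus strand) and Cd3g (44969572 to 44980431, minus strand) encode the delta and gamma chains and are transcribed away from each other, from start sites 1355 bp apart. The peaks over those starts never merged: the uncalled gap between them was 891 and 572 bp in NR, 963 and 442 bp at 30 min and 891 and 367 bp at 2 h. In replicate 2 of each group, each peak also came within 1000 bp of the other gene's start. Cd3d measured 1603 and 1649 bp in NR, 1694 and 2358 bp at 30 min and 1947 and 2417 bp at 2 h. Its NR libraries were the lowest of the 6, with log2 changes of 0.12 ± 0.18 at 30 min (limma adjusted p = 0.886) and −0.08 ± 0.18 at 2 h (adjusted p = 0.871). Cd3g measured 1795 and 2786 bp in NR, 1026 and 2807 bp at 30 min and 2362 and 3372 bp at 2 h. Its groups overlapped in every comparison, and the changes were −0.53 ± 0.24 at 30 min (limma adjusted p = 0.681) and −0.15 ± 0.24 at 2 h (adjusted p = 0.811). In the first 2 h library the Cd3g peak was split in 2, with 844 bp over the start and 1518 bp further into the gene. The sign of the 2 h change of Cd3d and Cd3g turned without centring, and that of Cd3e and Cd247 under quantile normalization. Over 18 other settings the 30 min change ran from 0.05 to 0.64 for Cd3e and from 0.08 to 0.73 for Cd247. Both were lowest under quantile normalization.

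Cd247 (chromosome 1, 165788681 to 165862112, plus strand) encodes the zeta chain, the one with the most tyrosine motifs, and is the longest of the 9 genes at 73432 bp. Its called length was 2710 and 3868 bp in NR, 4115 and 7176 bp at 30 min and 4821 and 5617 bp at 2 h. All 4 restimulated libraries lay above both NR libraries. The log2 change was 0.57 ± 0.16 at 30 min (unadjusted p = 0.0130, limma adjusted p = 0.433) and 0.19 ± 0.16 at 2 h (adjusted p = 0.636). The summit of the peak over its start was not at the start but 1564 and 1558 bp inside the gene in NR, 1377 and 1508 bp at 30 min and 1526 and 1510 bp at 2 h. The printed window therefore held no summit in any library. Only 0.703% to 1.35% of all genes with a start-site peak had a summit more than 1000 bp downstream, and the median summit lay 44 to 60 bp downstream. By the authors' fold enrichment, which ranks a peak within its own list, the Cd247 peak stood above 91.8% to 98.2% of promoter peaks in the 6 libraries.

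Cd4 (chromosome 6, 124864693 to 124888209, minus strand) encodes the coreceptor that binds MHC class II and carries Lck. Its called length was 1418 and 1242 bp in NR, 740 and 4276 bp at 30 min and 3730 and 4443 bp at 2 h. The 30 min libraries lay on either side of NR, and both 2 h libraries were above both NR libraries. The log2 change was 0.27 ± 0.52 at 30 min (limma adjusted p = 0.947) and 1.07 ± 0.52 at 2 h (adjusted p = 0.465). What differed was reach into the gene. The start-site peak ran 306 and 415 bp downstream in NR, 480 and 3525 bp at 30 min and 3334 and 3571 bp at 2 h, so 30 min replicate 1 resembled NR and replicate 2 resembled 2 h. In that first 30 min library, 3 further summits were called 1664, 2300 and 2728 bp into the gene, within the stretch that a single peak covered in 30 min replicate 2 and both 2 h libraries. NR replicate 2 also had summits in that stretch, 2137 and 2615 bp into the gene. In NR replicate 1, 2 smaller peaks of 397 and 451 bp flanked a start-site peak of 570 bp. With only peaks that cover the start counted, the 2 h change was 1.65 ± 0.55 (limma adjusted p = 0.417).

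**Figure D2:**
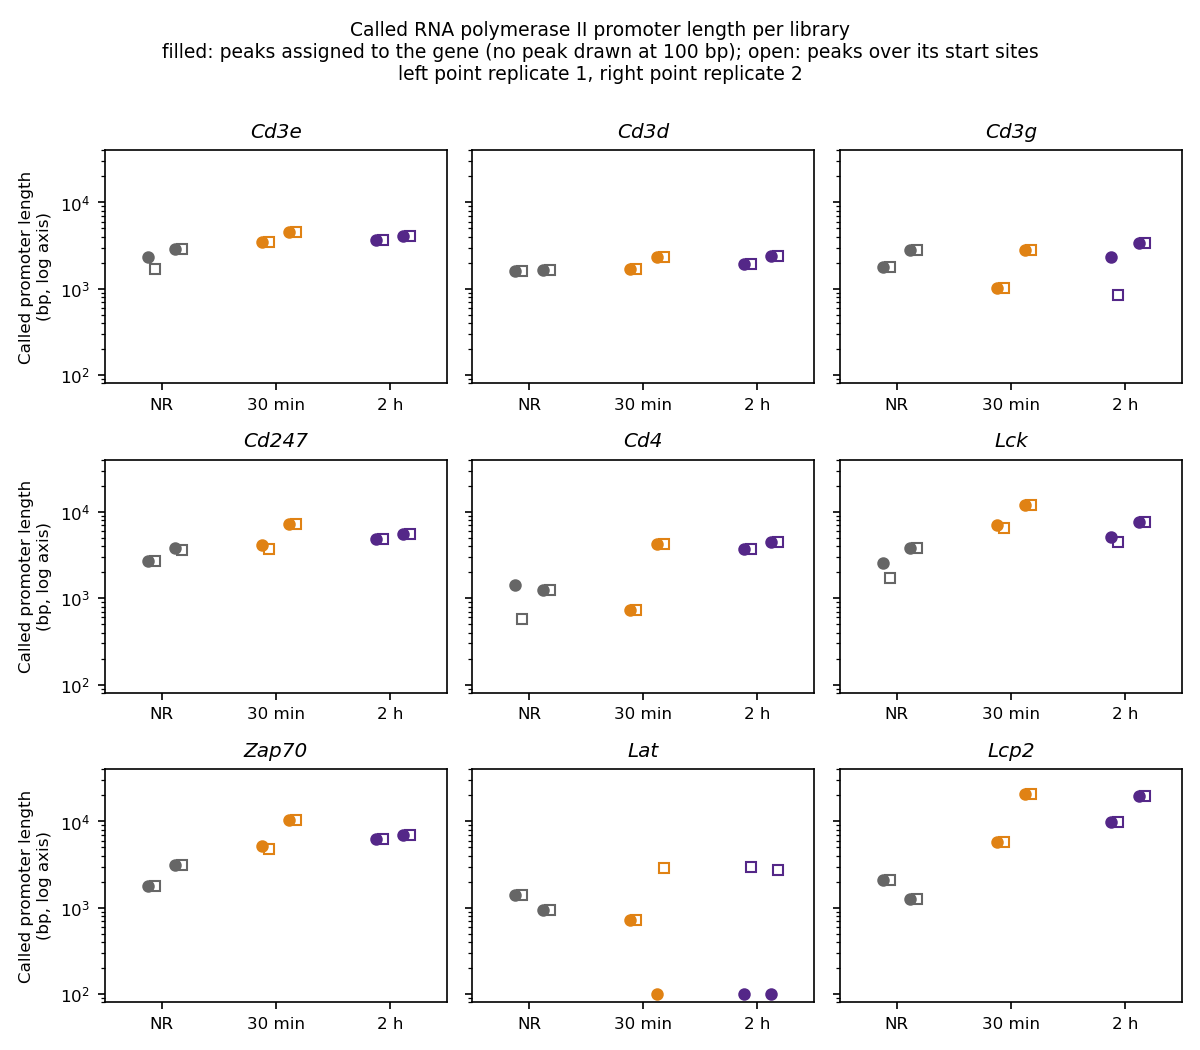
Called promoter length in bp (vertical log axis) per library for the 9 genes, with NR, 30 min and 2 h from left to right and replicate 1 left of replicate 2. Filled points are peaks assigned to the gene and open squares peaks over its start sites. Lcp2 reaches 20614 bp in 30 min replicate 2 against 1255 bp in NR replicate 2, and Lat has no assigned peak in 3 libraries in which a peak covers its start.

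Lck (chromosome 4, 129548344 to 129573641, minus strand), the Src family kinase that starts the cascade, is transcribed from a distal and a proximal promoter, 15269 bp apart. In mature T cells the distal promoter is known to be the more active one. Its called length over all sites was 2556 and 3873 bp in NR, 7063 and 12159 bp at 30 min and 5065 and 7706 bp at 2 h. Both 30 min and both 2 h libraries were above both NR libraries. The log2 change was 1.37 ± 0.22 at 30 min (unadjusted p = 0.00113, limma adjusted p = 0.126), larger than that of 96.3% of all genes. It was 0.49 ± 0.22 at 2 h (adjusted p = 0.434). Counted by position over Lck and 1000 bp on either side, the change was 1.07 ± 0.23 at 30 min (limma adjusted p = 0.250). At 2 h it was 0.28 ± 0.23 by position (adjusted p = 0.626). Over 18 other settings the 30 min change ran from 0.84 to 1.58. The change between 2 h and 30 min was −0.88 ± 0.22 (unadjusted p = 0.00857, adjusted p = 0.614), although the raw lengths of the 2 groups overlapped.

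The peak over the distal start of Lck extended on both sides. Upstream it covered 408 and 677 bp in NR, 2154 and 3804 bp at 30 min and 1809 and 2087 bp at 2 h, and all 4 restimulated libraries exceeded NR. Downstream it covered 1290 and 2282 bp in NR, 4396 and 6694 bp at 30 min and 2651 and 4626 bp at 2 h. The median gene had 320 to 526 bp upstream and 385 to 720 bp downstream in the 6 libraries. In 30 min replicate 2 the peak ran 631 bp into the neighbouring gene Fam167b, so its upstream edge could include signal of that gene. The proximal site had much weaker peaks, of 588 and 913 bp in NR, 512 and 1138 bp at 30 min, and 338 with 266 bp, and 992 bp, at 2 h. By fold enrichment the best proximal peak stood above 2.37% to 24.9% of the promoter peaks of its list and the distal peak above 52.2% to 90.6%. The distal peak ranked above the proximal one in all 6 libraries. Another start site of the tables had a peak of 522 bp in 30 min replicate 2 alone.

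Zap70 (chromosome 1, 36761798 to 36782820, plus strand), the kinase recruited to phosphorylated CD3 and zeta chains, had 1791 and 3125 bp in NR, 5202 and 10322 bp at 30 min and 6336 and 6974 bp at 2 h. Every restimulated library was above both NR libraries. The log2 change was 1.43 ± 0.22 at 30 min (unadjusted p = 0.000848, limma adjusted p = 0.109), above 96.7% of all genes, and 0.97 ± 0.22 at 2 h (unadjusted p = 0.00514, adjusted p = 0.183), above 88.8%. Between 2 h and 30 min it was −0.46 ± 0.22 (adjusted p = 0.866). The extra length lay almost wholly inside the gene. The start-site peak ran 509 and 821 bp downstream in NR, 2676 and 8601 bp at 30 min and 3499 and 3660 bp at 2 h, while upstream it covered 1281 to 1720 bp in all 6 libraries. The upstream side was thus already wide in NR, where the median gene had 349 and 442 bp. The longer peaks of 30 min replicate 2 and both 2 h libraries overlap the annotated pseudogene Gm18828, which lies within Zap70.

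Lat (chromosome 7, 126363828 to 126369568, minus strand), the membrane scaffold phosphorylated by ZAP-70, had assigned peaks of 1422 and 953 bp in NR and 722 bp in 30 min replicate 1. In 30 min replicate 2 and both 2 h libraries it was listed with no peak. The polymerase peak was not gone there. A peak of 2852, 2936 and 2741 bp covered the Lat start in those 3 libraries, but the authors' tables assign it to Mir7058, a microRNA gene that lies inside Lat. In NR and 30 min replicate 1, a separate summit 1571 to 1683 bp into Lat marked the stretch that the wide peak covered in those 3 libraries. With the assigned peaks the log2 change was −2.30 ± 1.31 at 30 min (limma adjusted p = 0.711). No fold is given at 2 h, where both libraries are listed with no peak (unadjusted p = 0.0222, adjusted p = 0.323, and adjusted p = 0.0351 without 30 min replicate 2). Counted by position over Lat and 1000 bp on either side, whatever the assigned gene, the lengths were 1747 and 1419 bp in NR. They were 1768 and 2852 bp at 30 min and 2936 and 2741 bp at 2 h. Those changes were 0.33 ± 0.24 at 30 min (limma adjusted p = 0.760) and 0.34 ± 0.24 at 2 h (adjusted p = 0.574). Counted by the peak over its start whatever its assigned gene, a measure added after the data were seen, the lengths were 1422 and 953 bp in NR, 722 and 2852 bp at 30 min and 2936 and 2741 bp at 2 h. The change was then 0.12 ± 0.46 at 30 min (adjusted p = 1.00) and 0.72 ± 0.46 at 2 h (adjusted p = 0.603). Both 2 h libraries were above both NR libraries by this measure, as were 52.6% of all genes. In the 3 libraries with the wide peak, it also ran 115 to 183 bp into Spns1, the gene upstream.

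Lcp2 (chromosome 11, 34047201 to 34090224, plus strand), which encodes the adaptor SLP-76 that binds LAT through its partner GADS, had the largest increase of the 9 genes in both comparisons with NR. Its called length was 2113 and 1255 bp in NR, 5728 and 20614 bp at 30 min and 9849 and 19965 bp at 2 h. The lowest restimulated library was above the highest NR library. The log2 change was 2.51 ± 0.54 at 30 min (unadjusted p = 0.00457, limma adjusted p = 0.273) and 2.55 ± 0.54 at 2 h (unadjusted p = 0.00421, adjusted p = 0.171). These changes exceeded those of 99.3% and 98.4% of all genes, but the mean length of 13171 bp at 30 min had an SD of 10526 bp and that of 14907 bp at 2 h one of 7153 bp (n = 2). Between 2 h and 30 min the change was 0.05 ± 0.54 (adjusted p = 0.988).

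The peak over the Lcp2 start covered 4.15% and 1.82% of the gene downstream of the start in NR, 11.1% and 44.4% at 30 min and 19.9% and 42.7% at 2 h. The downstream reach was 1784 and 785 bp in NR, 4774 and 19116 bp at 30 min and 8545 and 18373 bp at 2 h. Upstream it was 328 and 469 bp in NR, 953 and 1497 bp at 30 min and 1303 and 1591 bp at 2 h. Both sides were longer in every restimulated library than in either NR library, and the summit lay 4 to 235 bp downstream of the start. In 30 min replicate 1, where the peak ended early, 6 separate summits followed it between 5275 and 17042 bp into the gene, the stretch that a single peak covered in replicate 2. The outermost of these, with a −log10 q of 13.2, had a counterpart in NR replicate 2 at 16905 bp with a −log10 q of 12.7. NR also had a summit at 3271 bp in replicate 1 and at 2046 bp in replicate 2. The lncRNA gene 4930469K13Rik spans all of Lcp2 in the annotation, and peaks do not tell the 2 genes apart.

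**Figure D3:**
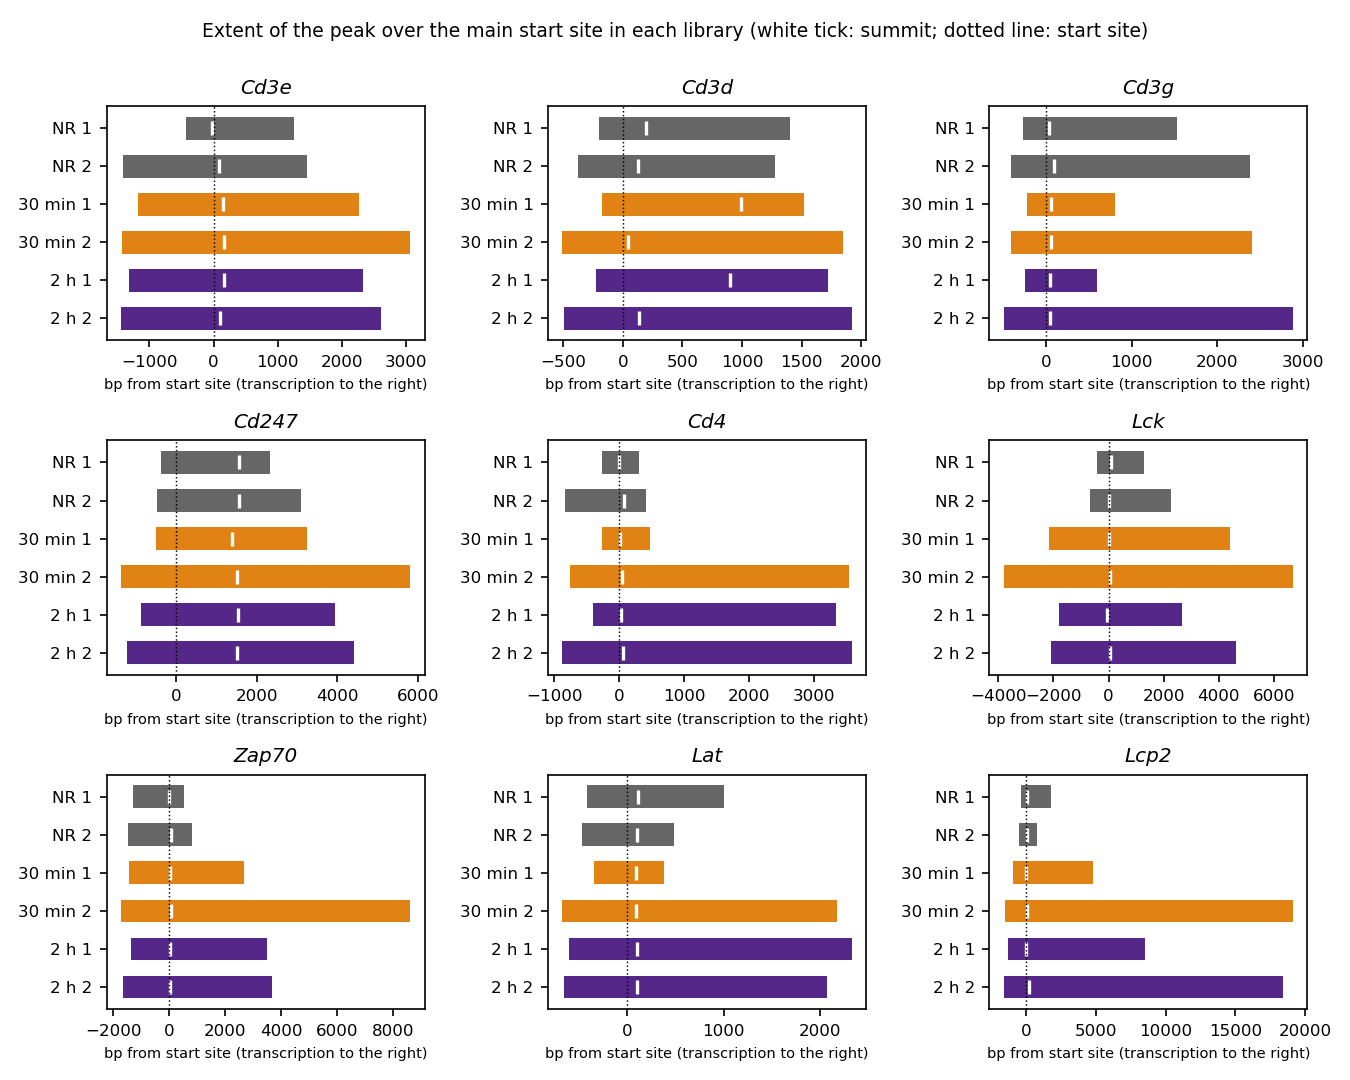
Extent of the peak over the main start site in each library, in bp from the start site with transcription to the right, for the 9 genes. White ticks mark summits and dotted lines the start site; horizontal scales differ between genes. The Lcp2, Zap70 and Cd4 peaks lengthen mainly to the right, the Lck peak on both sides, and the Cd247 summit lies 1377 to 1564 bp inside the gene.

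Within each list, width set several of these peaks apart more than enrichment did. The Lcp2 peak was wider than 94.8% and 73.4% of promoter peaks in NR, 98.9% and 99.9% at 30 min and 99.3% and 99.8% at 2 h. Its fold enrichment stood above 74.9% and 53.6% of them in NR, 89.6% and 82.2% at 30 min and 94.5% and 80.9% at 2 h. The Cd4 peak was wider than 33.3% and 72.8% in NR, 53.8% and 94.1% at 30 min and 95.5% and 95.4% at 2 h, with fold enrichment above 42.2% to 66.5% of peaks in the 6 libraries. The Zap70 peak was above 86.0% to 96.2% by fold enrichment in every library. These ranks describe a peak within its own list, and lists of different lengths allow no reading of change from them.

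**Figure D4:**
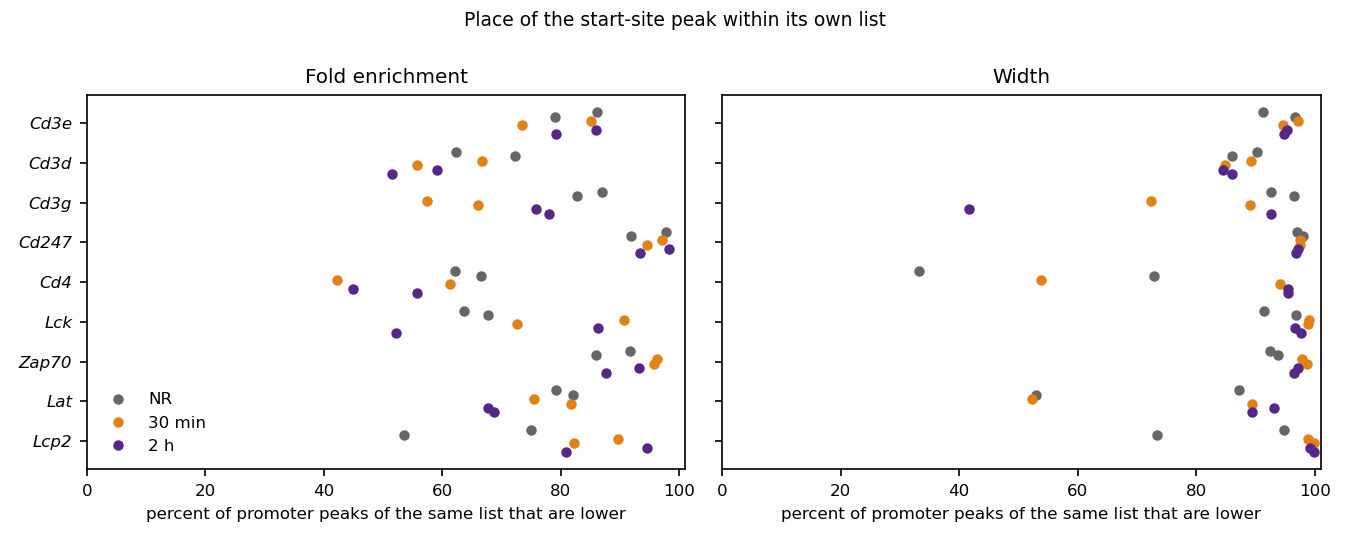
Percent of promoter peaks of the same library with a lower fold enrichment (left) or a smaller width (right) than the start-site peak of each gene, with 1 point per library and colours for NR, 30 min and 2 h. Cd247 stands above 91.8% in every library by enrichment, and Cd4 spreads widely by width, with 33.3% at the lowest.

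The lists of all summits, which also hold peaks away from promoters, gave a second view of the gene bodies. Within the spans of the 9 genes there were 15 and 23 summits in NR, then 30 and 32 summits at 30 min and 33 and 28 summits at 2 h. More than 1000 bp from the start there were 9 and 15 summits in NR, 22 and 24 summits at 30 min and 26 and 20 summits at 2 h. Each restimulated library had more than either NR library. Over the 10419 genes there were 8341 and 9722 summits in NR, then 8619 and 12853 summits at 30 min and 11348 and 11999 summits at 2 h. More than 1000 bp from the start they numbered 2653 and 3095 in NR, 2788 and 5810 in the libraries at 30 min and 4390 and 5003 in those at 2 h. Over all genes, 30 min replicate 1 thus lay between the NR libraries and the other 3 restimulated libraries lay above both. These counts carry no test. They also fall when a peak widens and absorbs its neighbours, as at Lcp2, where the summits more than 1000 bp from the start numbered 1 and 2 in NR, 6 in each 30 min library and 2 and 4 at 2 h.

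Inside Cd247, summits between 13047 and 13861 bp from the start were called in all 4 restimulated libraries and in neither NR library. They lay at 13835 and 13861 bp in replicate 1 of 30 min and 2 h, and at 13131 and 13047 bp in replicate 2. Their −log10 q was 9.16 and 52.5 at 30 min and 38.7 and 50.5 at 2 h. How many sites over all genes show this pattern was not counted. A second site, 56656 to 56928 bp from the start, was called in NR replicate 2, 30 min replicate 2 and both 2 h libraries, so it did not separate the groups. In Zap70, summits between 4783 and 5729 bp lay near the second start site of the tables in NR replicate 2, 30 min replicate 1 and both 2 h libraries. In 30 min replicate 2 the start-site peak covered that stretch.

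Summits near the 3′ ends stood out in Cd3d and Cd3e. In Cd3d the summit nearest the 3′ end had a −log10 q of 16.8 and 82.0 in the NR libraries, 64.4 and 210 in those at 30 min, and 127 and 190 in those at 2 h. The start-site peak of the same gene had 22.6 and 123 in the NR libraries, 28.9 and 158 in those at 30 min, and 54.0 and 114 in those at 2 h. Within a library, the start-site peak was thus the stronger of the 2 in both NR libraries and the 3′ peak the stronger in all 4 restimulated libraries. The 3′ summit lay at −1255 bp from the end of the gene in NR replicate 1. It lay 67 and 49 bp past the end in replicate 1 of 30 min and 2 h. In replicate 2 it lay at −525 bp in NR, −509 bp at 30 min and −556 bp at 2 h. The summits compared were thus not at the same position in every library. The start-site summit of Cd3d itself lay 994 and 901 bp downstream in replicate 1 of 30 min and 2 h, and 48 to 198 bp downstream in the other 4 libraries. For Cd3e a summit 283 to 446 bp past the 3′ end was called in all 6 libraries, with a −log10 q of 4.19 and 15.1 in the NR libraries, 11.8 and 76.1 in those at 30 min, and 15.7 and 57.9 in those at 2 h. It was weaker than the Cd3e start-site peak, at 35.4 to 271, in every library. With 2 libraries a group these orders were not tested. They were picked out after the summits were seen, and how many of all genes share them was not counted.

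**Figure D5:**
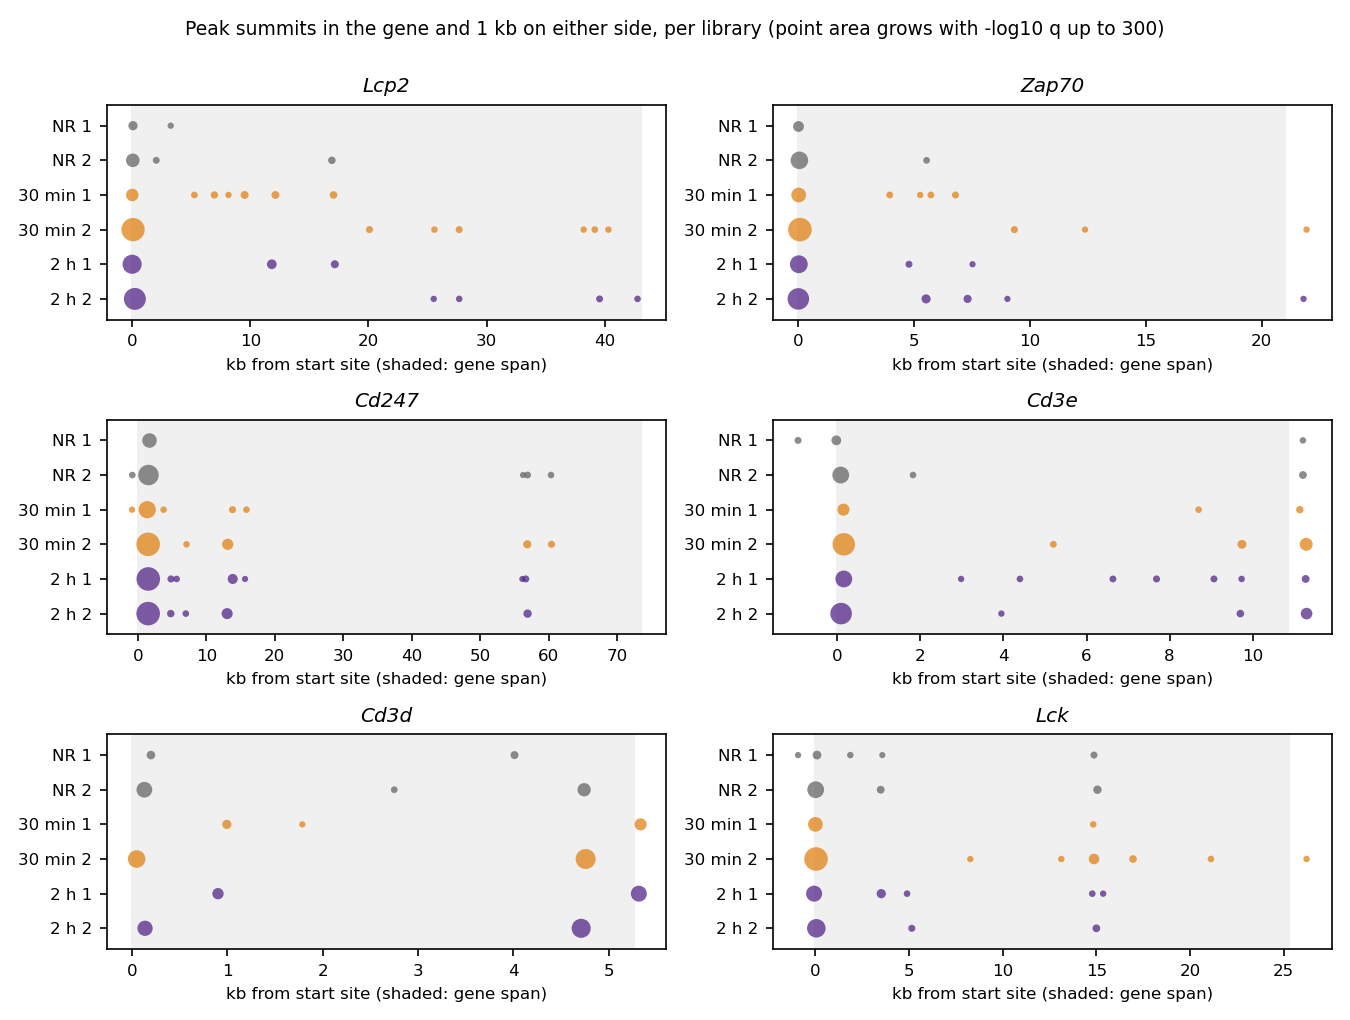
Peak summits in and around 6 of the genes per library, in kb from the start site, with the gene span shaded and point area growing with −log10 q. Summits within Lcp2 appear in all 6 libraries, those near 13 kb of Cd247 in the 4 restimulated ones, and the 3′ summit of Cd3d exceeds its start-site summit in the 4 restimulated libraries. How many of all genes show such patterns was not counted.

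Other genes of T cell receptor signalling were taken from a list of 47 receptor chains, surface modulators, kinases, adaptors, phosphatases and downstream enzymes. The list was drawn up with earlier results of these data known. A promoter peak was assigned to 41 of the 47 in at least 2 libraries, and Trac, Trbc1, Trbc2, Trat1, Syk and Skap1 had no assigned peak in any library. Whether the authors' annotation could assign a peak to these symbols was not checked. For the receptor chain genes Trac, Trbc1 and Trbc2 in particular, the missing peak does not show that polymerase was absent. Counted by position, whatever the assigned gene, Skap1 had a peak, and 42 genes were tested. With assigned peaks, no listed gene passed limma's adjusted p of 0.05 in any comparison. By position 1 did, Lime1 as longer at 30 min against NR. Before adjustment, limma's p was under 0.05 for 12 of the 41 (29.3%) as longer and 1 (2.44%) as shorter at 30 min against NR, where 5.85% and 2.15% of all genes were. At 2 h against NR it was so for 13 (31.7%) and 0, beside 7.95% and 4.65%, and at 2 h against 30 min for 3 (7.32%) and 2 (4.88%), beside 2.26% and 2.92%. Groups did not overlap, as longer, for 14 genes (34.1%) at 30 min against NR, beside 11.5% of all genes, for 25 (61.0%) at 2 h against NR, beside 52.3%, and for 8 (19.5%) at 2 h against 30 min, beside 17.0%. The last 2 shares lie near those of all genes. No listed gene had groups that did not overlap as shorter, beside 1.16%, 2.09% and 0.727%. The median log2 change was 0.17, 0.10 and 0.03, so like the median of all genes it lay near 0.

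Of the listed genes with the largest changes, Ptpn22, a phosphatase that counteracts Lck and ZAP-70, had 1748 and 1583 bp in NR, 5594 and 14697 bp at 30 min and 7753 and 14892 bp at 2 h. Its change was 2.22 ± 0.35 at 30 min (limma adjusted p = 0.126) and 2.14 ± 0.35 at 2 h (adjusted p = 0.0988). At 30 min the others were Malt1, a protease that acts in signalling to NF-kappa B, at 1.89 ± 0.33 (adjusted p = 0.153), and Orai1, the pore of the store-operated calcium channel, at 1.79 ± 0.34 (adjusted p = 0.200). At 2 h they were the adaptor Grap, at 2.16 ± 0.29 (adjusted p = 0.0670), and Sla, an adaptor that promotes loss of the receptor, at 1.97 ± 0.32 (adjusted p = 0.0983). Grap measured 1170 and 915 bp in NR, 2554 and 3134 bp at 30 min and 5906 and 8162 bp at 2 h, and its 3 groups did not overlap. Of all genes, 11.5% were apart as longer at 30 min against NR and 17.0% at 2 h against 30 min. The share with both was not counted. At 2 h against 30 min the limma change was 1.15 ± 0.62 for the surface glycoprotein gene Cd6 (adjusted p = 0.866) and 0.95 ± 0.29 for Grap (adjusted p = 0.762). Grap, the nearest of these genes to the threshold at 2 h against NR, passed it under 5 of the other settings tried.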

How the data were processed

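RNA polymerase II ChIP-seq peaks of 6 libraries were analysed. The submitters' processing notes name BWA 0.7.13, Picard 1.119, MACS2 2.1.0 and mm10 but no role for any. Fixation used 1% formaldehyde (10 min) and libraries kept 360 to 600 bp fragments, per the labels' protocols. The authors called peaks in each library. Their deposited tables give, per promoter peak, its width in bp, a pileup signal, a fold enrichment ratio and −log10 values of p and q (a p-value and its adjusted form), per the file headers. The deposited summit lists give positions with a −log10 q of at least 1.31. Coordinates are 1-based mm10.

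Called bp per gene, as log2(bp + 100), were centred on the median of the 7410 genes with peaks in all 6 libraries. They were fitted with limma 3.58.1 in R 4.3.3 (trend, group as the only term, 6 libraries, Benjamini-Hochberg over 9908 genes). The fit was also run on simulated data, with 1 spread for all genes and only genes with peaks in all 6 libraries. That run does not check p-values of genes with unequal spread or with no peak in some libraries. Centring removed log2 shifts of 0.16 (30 min over NR), 0.48 (2 h over NR) and 0.32 (2 h over 30 min). Upstream and downstream reach, summits, ranks and promoter letters are descriptions. All 9 members were named. Listed genes were named if past the threshold, or else the 3 with the largest change among genes whose groups did not overlap; 1 result under this rule is not reported here. The members and lists were chosen with earlier results of these data known.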

Additional observations from a re-analysis of the deposited data

How the results depend on the processing

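Each comparison was recomputed with other pseudocounts (10 and 1000 bp), gene filters, centring, peak thresholds, peak assignments, library subsets and a replicate block. With a peak required in at least 4 libraries, Lat was not tested and 8 of the 9 genes remained. The same held at 2 h against 30 min with only the 4 libraries compared. The count of the 9 genes past the threshold stayed at 0 in all 3 comparisons under every alternative, leaving out each library in turn included (0 to 0), except 2 h against NR, where it was 0 to 1 (Lat, without 30 min replicate 2). Of the listed genes, counting by position gave 1 at 30 min against NR (Lime1). At 2 h against NR a pseudocount of 1000 bp gave 2 (Grap and Sla), no centring 1 (Grap), peak lists of equal length 1 (Grap) and a fit on only the 4 libraries compared 3 (Cd5, Grap and Sh2d2a). Leaving out a library gave 0 to 3 there, with 1 (Cd5) without 30 min replicate 1 and 3 (Cd5, Grap and Sh2d2a) without its replicate 2. It gave 0 to 1 for 2 h over 30 min (Cd6, without 30 min replicate 2). A group left with 1 library was assumed to vary like the others.

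Log2 changes turned sign as follows, all short of the threshold. At 30 min against NR they were −0.017 (quantile normalization) and −0.039 to 0.29 over the libraries left out, below 0 without NR replicate 2 or 30 min replicate 1, for Cd3d, −0.53 to 1.07 for Cd4, below 0 without 30 min replicate 2, and 0.33 (by position) and 0.12 (start-site peaks) for Lat. At 2 h against NR they were −0.19 for Cd3e and −0.19 for Cd247 (quantile normalization), 0.40 for Cd3d and 0.32 for Cd3g (no centring), −0.23 to 0.062 for Cd3d, above 0 without NR replicate 1, and 0.34 (by position) and 0.72 (start-site peaks) for Lat. For 2 h over 30 min they were 0.11 for Cd3d (no centring), −0.31 for Cd3g (start-site peaks) and 0.014 (by position) and 0.60 (start-site peaks) for Lat. Libraries left out in turn gave −3.75 to 0.081 for Lat there, above 0 without 30 min replicate 1, and −0.47 to 0.57 for Lcp2, below 0 without 30 min replicate 1 or 2 h replicate 2. The start-site measure was chosen after seeing the data. The cause of these differences was not tested.

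The mean number of summits in the 9 gene spans was 19 in NR, 31 at 30 min and 30.5 at 2 h. It was 24.5, 35 and 35.5 with 1000 bp flanks (22 against 15 in NR replicate 1, where the start-site summits of Cd3e, Cd4 and Zap70 lay just upstream of the span), and 14.5, 22.5 and 24 for summits with a −log10 q of at least 5. Replicate numbers are shared between groups but 2 of them cannot establish pairing. Deviations of same-numbered libraries correlated at 0.44, 0.27 and 0.41 across genes. The main fit has no replicate term, so a difference shared by same-numbered libraries that centring leaves stays in its SE and p-values. With the replicate block, 0 of the 9 genes and 0 listed genes passed in each comparison. Peak lists without read depth limit every statement here: length depends on sequencing depth as well as on occupancy, and 2 libraries a group leave wide errors.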

Other observations

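Further lengths are given for 4 of the listed signalling genes, picked out after their values were seen. Prkcq, the protein kinase C isoform of the T cell synapse, was already long in NR, with 9360 and 14928 bp, and had 8464 and 16470 bp at 30 min and 15240 and 16044 bp at 2 h. Both 2 h libraries were above both NR libraries, as they were for 52.3% of all genes. The adaptor Sla measured 3699 and 3249 bp in NR, 10913 and 16791 bp at 30 min and 18602 and 20174 bp at 2 h, and its 3 groups did not overlap. Of all genes, 11.5% were apart as longer at 30 min against NR and 17.0% at 2 h against 30 min. The share with both was not counted. Short peaks were found at the kinase genes Txk (418 to 941 bp) and Tec (511 to 963 bp) in all 6 libraries.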
